A study of Mus musculus with 4 samples.

Results

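Mast cells and basophils are granulocytes that bind immunoglobulin E (IgE) and release stored proteases and histamine. Expression of 10 genes of these cells was followed across 4 libraries of mouse blood stem and early progenitor cells. The genes were given as a list, chosen with earlier results of these data known, and make up 10 of the 32285 genes in the count tables. They comprise 4 genes of mast cells (Cma1, Mcpt4, Tpsb2 and Tpsab1), 2 genes of basophils (Mcpt8 and Prss34) and 4 genes used by both cell types (Cpa3, Fcer1a, Ms4a2 and Hdc). The levels below are those of barcodes with at least 1000 detected genes and at most 10% mitochondrial counts. They are given in CPM, the UMIs of a gene for each 1000000 UMIs of all genes in the same cells, where a UMI (unique molecular identifier) stands for 1 captured RNA molecule.

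Both cell types arise in the bone marrow from progenitors that also give rise to neutrophils, monocytes and megakaryocytes. Basophils finish maturing in the marrow, whereas mast cells mostly mature after they have entered tissues such as skin and gut. Cma1 and Mcpt4 encode chymases, and Tpsb2 and Tpsab1 encode tryptases, proteases packed into the granules of connective tissue mast cells. Mcpt8 and Prss34 encode proteases that mark mouse basophils. Cpa3 encodes a carboxypeptidase stored with the mast cell proteases. Fcer1a and Ms4a2 encode the alpha and beta chains of the high-affinity IgE receptor, and Hdc encodes the enzyme that makes histamine.

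The study profiled single cells with droplet RNA sequencing and 6 surface antibodies in donor-derived (CD45.2+) lineage-negative, Sca1+ and Kit+ bone marrow cells (LSK cells), 10 weeks after transplantation. The libraries are labelled control, Mll3 deleted, Mll4 deleted and Mll3/4 deleted. Mll3 and Mll4 are the histone methyltransferases encoded by Kmt2c and Kmt2d, and the labels do not name the Cre driver, the alleles or the number of mice. There was 1 library per genotype, so no difference between genotypes has a replicate check and none was tested. Intervals are 95% intervals that cover counting error only.

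After filtering, 4748 to 7274 cells per library remained, with 50792614 to 120700343 UMIs and medians of 8920 to 21400 UMIs per cell. The filter removed 37.8% of the barcodes of the Mll4-labelled library and 5.31% to 7.55% of the others. Kmt2c stood at 68.9 CPM in control cells, 35.3 in Mll3-labelled, 61.3 in Mll4-labelled and 42.3 in Mll3/4-labelled cells. Kmt2d stood at 24.6, 21.6, 22.6 and 25.4 CPM in the same order. Kmt2d tags were thus present with every label, and 3′ tags outside a deleted part do not check the deletion. The libraries are therefore named by their labels. Kit was detected in 81.3% to 91.1% of the cells of a library and Ly6a, which encodes Sca1, in 59.1% to 69.2%. Any pair of libraries shared 7 to 14 cell barcodes.

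The chymase-type genes lie together on chromosome 14 (GRCm38): Cma1 at chr14:55941451-55944675, Mcpt4 at chr14:56059629-56062313 and Mcpt8 at chr14:56082166-56085273, all on the minus strand. The tryptase-type genes lie on chromosome 17, with Prss34 at chr17:25298394-25300165, Tpsab1 at chr17:25343245-25345562 and Tpsb2 at chr17:25366305-25369098. Cpa3, Fcer1a, Ms4a2 and Hdc lie on chromosomes 3, 1, 19 and 2. Tags are counted near the 3′ end, so near-identical copies could share reads. The last 300 transcript bases of Tpsb2 and Tpsab1 aligned at 56.4% identity, and their transcripts shared 0 identical stretches of 50 bases. Among the pairs compared, Mcpt4 and Mcpt9 were the exception, with 7 shared stretches of that length.

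Promoters were searched because members of both neighbourhoods appeared in the same cells below. RefSeq promoter entries (GRCm38.p6) were matched for 8 of the 10 genes, each covering 250 bases before and 50 bases after the start. None was matched for Tpsb2 and Tpsab1, so Prss34 was the only chromosome 17 gene searched. Both strands were searched for the GATA motifs AGATAA and TGATAA, the RUNX motif TGTGGT, the E-box motifs CATGTG and CACGTG, the ETS motif AGGAAGT and the C/EBP motif TTGCGCAA. AGATAA was present in 4 of the 8 promoters (Cpa3, Fcer1a, Prss34 and Ms4a2), against 11.2% of 32851 promoters of that length. TGATAA was present in 1 of the 8 (Mcpt4), against 9.05%. TGTGGT was present in 5 of the 8 and CATGTG in 2 of the 8, against 16.8% and 14.2% of all promoters. The other 3 motifs were in none of the 8 windows. The 250 bases before the start follow for 2 chymases, the basophil protease on the same chromosome and 2 genes of both cell types, each on the gene's own strand, which is the minus strand for all 5. Capitals mark AGATAA or TGATAA on either strand, at -46 in Cpa3, at -224, -37 and -11 in Ms4a2 and at -103 in Mcpt4. A match describes the letters and not a bound site.
Cpa3, chr3:20242182-20242431: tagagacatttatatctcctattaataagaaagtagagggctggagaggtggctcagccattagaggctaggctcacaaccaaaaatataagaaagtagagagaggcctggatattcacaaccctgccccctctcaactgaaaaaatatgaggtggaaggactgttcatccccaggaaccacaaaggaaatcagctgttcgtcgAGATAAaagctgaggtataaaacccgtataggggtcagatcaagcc
Ms4a2, chr19:11623720-11623969: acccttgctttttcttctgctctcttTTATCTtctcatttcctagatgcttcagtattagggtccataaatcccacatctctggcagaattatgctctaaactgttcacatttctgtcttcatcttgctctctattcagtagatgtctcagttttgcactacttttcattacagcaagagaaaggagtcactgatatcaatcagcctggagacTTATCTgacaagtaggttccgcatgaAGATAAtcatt
Mcpt4, chr14:56062311-56062560: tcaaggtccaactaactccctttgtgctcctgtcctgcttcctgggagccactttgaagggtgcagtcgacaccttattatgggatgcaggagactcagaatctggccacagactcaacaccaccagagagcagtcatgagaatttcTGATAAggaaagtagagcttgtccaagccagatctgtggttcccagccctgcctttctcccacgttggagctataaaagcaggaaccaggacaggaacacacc
Cma1, chr14:55944676-55944925: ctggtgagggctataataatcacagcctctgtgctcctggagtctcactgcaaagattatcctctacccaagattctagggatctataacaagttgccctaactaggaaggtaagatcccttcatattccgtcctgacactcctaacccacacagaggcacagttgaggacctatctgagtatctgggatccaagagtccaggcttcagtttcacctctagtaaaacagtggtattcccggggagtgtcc
Mcpt8, chr14:56085198-56085447: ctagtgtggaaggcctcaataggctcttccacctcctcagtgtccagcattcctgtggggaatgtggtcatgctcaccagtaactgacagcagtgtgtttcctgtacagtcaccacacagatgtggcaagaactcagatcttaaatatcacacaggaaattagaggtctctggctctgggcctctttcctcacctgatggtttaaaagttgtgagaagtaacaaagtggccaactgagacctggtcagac

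The mast cell proteases were high in the Mll4-labelled library and close to 0 in the others. Cma1 gave 18 UMIs in control cells, 24 in Mll3-labelled, 55362 in Mll4-labelled and 0 in Mll3/4-labelled cells. In each of the first 2 libraries all of those UMIs came from 1 cell. In CPM, Cma1 reached 459 (455 to 463) with the Mll4 label against 0.151 (0.0894 to 0.238) in control cells. Mcpt4 gave 18, 0, 26375 and 0 UMIs in the same order, and its control UMIs came from the same cell that held Cma1. The other connective tissue protease, Tpsb2, gave 14645 UMIs in Mll4-labelled cells and 0 elsewhere, which puts it at least 4826-fold above control when control is set to 3 UMIs. Tpsab1, the tryptase beside it, gave 25 UMIs in 11 Mll4-labelled cells and 0 elsewhere. Of the 2 tryptases, Tpsb2 thus carried nearly all the tags, and Tpsab1 was at the edge of detection.

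Basophil proteases were highest in the same library but spread differently. Mcpt8 gave 575 UMIs in 268 control cells, 205 in 105 Mll3-labelled cells, 5533 in 745 Mll4-labelled cells and 0 in Mll3/4-labelled cells. Its levels were 4.82, 1.94, 45.8 and 0 CPM. Against control, Mcpt8 was 9.51-fold (8.73 to 10.4) higher with the Mll4 label, 2.49-fold (2.12 to 2.93) lower with the Mll3 label and at least 81.6-fold lower with the Mll3/4 label, where 0 is set to 3 UMIs. Prss34 gave 4, 0, 462 and 0 UMIs. A single Mll4-labelled cell held 389 of the 462 Prss34 UMIs (84.2%), so its level there describes mostly that cell. Without the richest cell of each library the log2 ratio to control was 2.99 for Mcpt8 against 3.25 with it. For Prss34 it was 5.60 against 6.67, with control reduced from 4 UMIs to 1, and 3.99 after removal of the highest doublet scores.

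The genes shared by both cell types were measurable in control cells and lower with the Mll3 and Mll3/4 labels, apart from Hdc. Cpa3 stood at 15.2 CPM in control cells, 6.80 in Mll3-labelled, 757 in Mll4-labelled and 1.75 in Mll3/4-labelled cells. Relative to control these levels were 2.23-fold (2.05 to 2.44) lower, 49.9-fold (47.6 to 52.3) higher and 8.66-fold (7.0 to 10.8) lower. The Mll3/4 value rests on 5 cells, 1 of which held 58 of the 89 Cpa3 UMIs. Without the richest cell of each library the log2 ratio of Cpa3 with the Mll3/4 label was -4.55 against -3.11 with it. Fcer1a, the IgE-binding chain, stood at 1.47, 0.264, 44.3 and 0 CPM. Its partner Ms4a2 stood at 2.04, 0.614, 17.5 and 0.0984, and the last value was 5 UMIs in 1 cell. Fcer1a was 30-fold higher and Ms4a2 8.56-fold higher with the Mll4 label than in control cells. Both receptor chains were thus lower with the Mll3 label, Fcer1a by 5.58-fold (3.73 to 8.64) and Ms4a2 by 3.33-fold (2.52 to 4.45).

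With the Mll3 label the lower library-wide levels of Cpa3 and Mcpt8 were not seen within MPP3, the antibody gate described below that held most of their UMIs in control. There Cpa3 stood at 24.1 CPM (22.3 to 26.0) with the Mll3 label and 23.8 (22.6 to 25) in control cells, and Mcpt8 at 6.55 (5.61 to 7.61) and 7.01 (6.35 to 7.71). Ms4a2 stood at 2.31 (1.77 to 2.97) and 3.48 (3.02 to 3.98), and Fcer1a at 0.341 (0.156 to 0.647) and 1.2 (0.938 to 1.51). The MPP3 gate took in 22.3% of Mll3-labelled cells and 44.3% of control cells. Other gates differed from MPP3. In the HSC gate Cpa3 stood at 0.585 CPM with the Mll3 label and 3.89 in control, and in MPP1 at 0.922 and 3.52. In MPP2 Cpa3 stood at 6.84 and 23.0, and in MPP4 at 0.562 and 5.06. Mcpt8 stood at 1.87 (1.14 to 2.89) and 8.82 (7.36 to 10.5) in MPP4. In MPP2 it stood at 1.41 and 1.98, with overlapping intervals. The size of the Mll4 ratios depended on how cells were weighted. With the stricter cell filter and with equal weight per cell, the log2 ratio to control was 4.93 and 7.45 for Cpa3 (5.64 otherwise), 4.0 and 6.78 for Fcer1a (4.90) and 2.44 and 4.98 for Ms4a2 (3.1).

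Hdc followed another pattern. It stood at 2.87 CPM (2.58 to 3.20) in control cells, 2.49 (2.20 to 2.81) with the Mll3 label, 53.7 (52.4 to 55.0) with the Mll4 label and 2.07 (1.69 to 2.5) with the Mll3/4 label. The Mll3 interval overlaps that of control, and the Mll3/4 value was 1.39-fold (1.11 to 1.75) lower. Under the stricter cell filter the log2 ratio of Hdc was -1.12 with the Mll3/4 label, past 2-fold, against -0.47. Where control cells held up to 15 Hdc UMIs each and 43 of 142 positive cells held at least 3, the 104 positive Mll3/4-labelled cells held 1 UMI in 103 cases and 2 in the other. Hdc thus had a similar summed level in the control and Mll3/4-labelled libraries with no Hdc-rich cell in the latter. At 3000 UMIs per cell the share of cells with Hdc was 0.891% with the Mll3/4 label and 0.427% in control, the reverse of the summed levels, so no order is read from the shares.

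**Figure D1:**
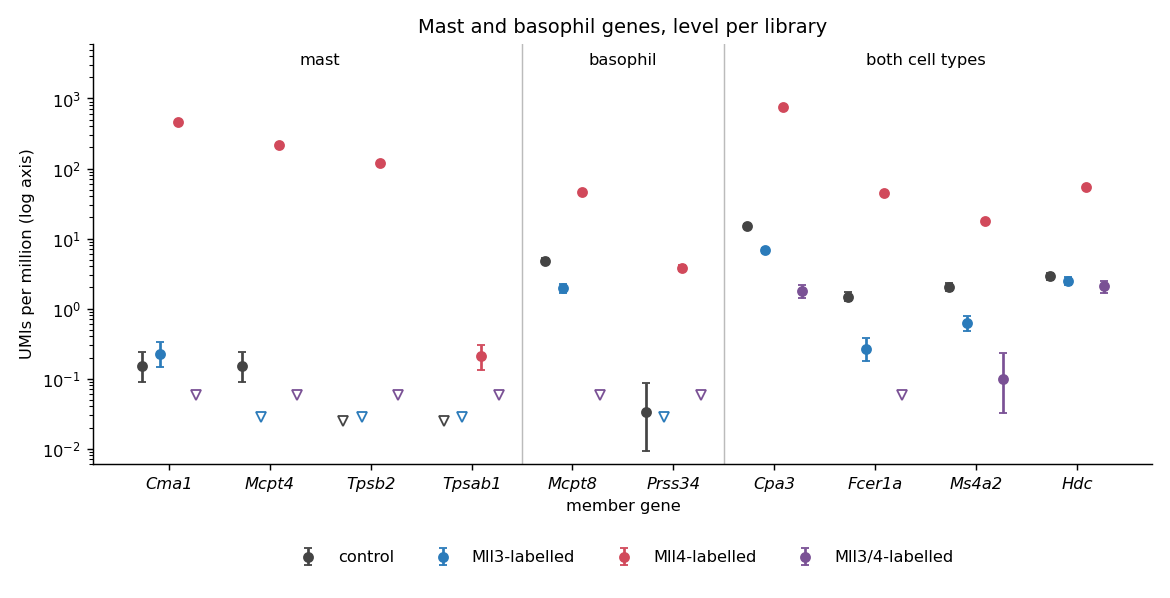
Level of the 10 genes in each of the 4 libraries, in CPM on a log axis, with 95% counting intervals, and open triangles at the level of 3 UMIs where a library held 0. All 10 genes were highest in the Mll4-labelled library, where Cma1 reached 459 and Cpa3 757 CPM.

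Genes averaging 5 CPM or more across the libraries were compared with control, which left 8 of the 10 members and excluded Tpsab1 and Prss34. With the Mll4 label 8 of 8 were more than 2-fold above control and 0 below, as were 6.44% and 4.72% of all genes. With the Mll3 label 5 of 7 were more than 2-fold below control, as were 0.94% of all genes, and 0 were above, as were 1.8% of all genes. With the Mll3/4 label 6 of 7 were below and 0 above, against 13.7% and 7.99% of all genes. The mean that admits a gene is itself set by the Mll4-labelled library. Without that library only Cpa3 passes, so these counts describe the 8 genes and support nothing more. The lower counts also take in Mcpt4 (both labels) and Cma1 (Mll3/4), each of which rests on 1 control cell. The 3 comparisons share the control library. Markers of other blood cells moved with these counts. With the Mll4 label 8 of 8 macrophage genes, 7 of 7 granulocyte-monocyte genes and 7 of 7 neutrophil genes were more than 2-fold above control, with summed levels of 612 against 22.2, 11743 against 1661 and 6025 against 841 CPM. With the Mll3/4 label 8 of 8 B lineage genes were above control, with a summed level of 10748 against 52.6, and with the Mll3 label 7 of 8 were, at 280. The part of these cells in the members' levels was not tested.

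Other genes of the same functions were compared over whole libraries in the same way. With the Mll4 label 3 of 14 IgE receptor signalling genes were more than 2-fold above control and 1 below, with a median log2 ratio of 0.46. Of 11 other granule and mediator genes 5 were above and 2 below, of 8 surface genes 3 and 1, and of 11 transcription factor genes 4 and 0. With the Mll3 label 0 signalling, surface or transcription factor genes passed 2-fold in either direction, and of 11 granule and mediator genes 1 was above and 2 below. Over every gene compared, the median log2 ratio was -0.11 with the Mll4 label and 0.10 with the Mll3 label.

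The Mll4-labelled signal of the mast proteases came from a distinct set of cells. Cells with at least 10 UMIs summed over Cma1, Mcpt4 and Tpsb2 are called mast-protease-high here. They numbered 1 of 7274 control cells, 1 of 6101 Mll3-labelled cells, 661 of 4793 Mll4-labelled cells (13.8%, exact binomial interval 12.8 to 14.8) and 0 of 4748 Mll3/4-labelled cells, where the upper limit of the interval is 0.0777%. These 661 cells held 96.5% of the library's Cma1 UMIs, 96.7% of its Mcpt4 UMIs and 96.1% of its Tpsb2 UMIs. They held 68.8% of its Cpa3, 86.3% of its Fcer1a, 64.6% of its Ms4a2 and 52.9% of its Hdc UMIs, but 33.8% of its Mcpt8 UMIs. Few cells lay near the boundary. There were 35 cells with 5 to 9 UMIs and 30 with 10 to 19, against 256 with 20 to 99 and 375 with at least 100. Under a stricter cell filter (2000 genes or more, 5% mitochondrial counts or less), 324 of 3731 cells (8.68%) were mast-protease-high. Since these genes define the class, their levels in it are a description.

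**Figure D2:**
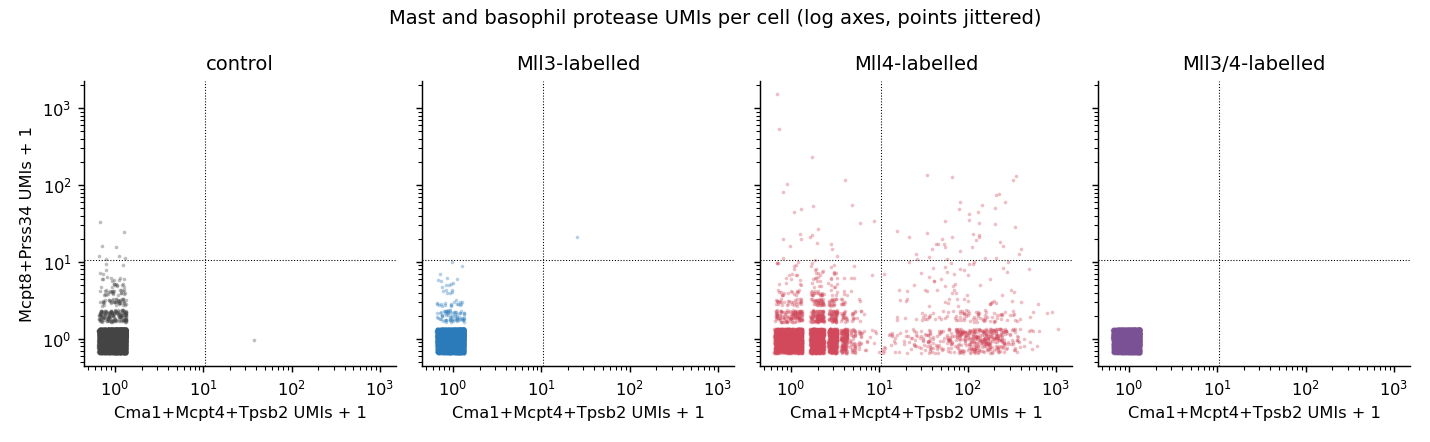
Each point is 1 cell, with the summed UMIs of the mast proteases Cma1, Mcpt4 and Tpsb2 on the x axis and of the basophil proteases Mcpt8 and Prss34 on the y axis, plus 1, on log axes with jitter, for each of the 4 libraries. Dotted lines mark 10 UMIs; 661 Mll4-labelled cells lie to the right of the vertical line against 1, 1 and 0 in the control, Mll3-labelled and Mll3/4-labelled libraries.

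The mast-protease-high cells held less RNA than the others. Their median was 5645 UMIs and 2249 genes per cell, against 24386 UMIs and 4716 genes in the 4107 Mll4-labelled cells past neither protease threshold. In them Cpa3 stood at 9088 CPM, Cma1 at 7725, Mcpt4 at 3689, Tpsb2 at 2037, Fcer1a at 668, Hdc at 497, Mcpt8 at 271 and Ms4a2 at 198. Because 3′ counting gives about 1 tag per transcript, these levels were not corrected for transcript length. Each of the 661 cells held at least 5 UMIs of Cpa3, with a median of 86 and a highest of 528. Fcer1a was detected in 91.1% of them, Hdc in 78.1% and Ms4a2 in 71.4%.

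Cma1 and Cpa3 were near-universal in these cells, whereas Mcpt4 and Tpsb2 were present in some and absent from others. Cma1 alone reached 10 UMIs in all but 8 of the 661 cells. It had 30 to 99 UMIs in 384 of the 661 cells and at least 100 in 175. Mcpt4 had 0 UMIs in 309 cells, 1 or 2 in 69, 3 to 9 in 18, 10 to 29 in 36, 30 to 99 in 128 and at least 100 in 101. Few cells thus held intermediate Mcpt4 counts. Tpsb2 had 0 UMIs in 254 cells, 1 to 9 in the next 2 bins (49 and 59 cells), 10 to 29 in 129 and 30 to 99 in 145. At a threshold of 3 UMIs, 214 cells held all 3 proteases, 234 held Cma1 alone, 143 held Cma1 with Tpsb2 and 69 held Cma1 with Mcpt4.

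**Figure D3:**
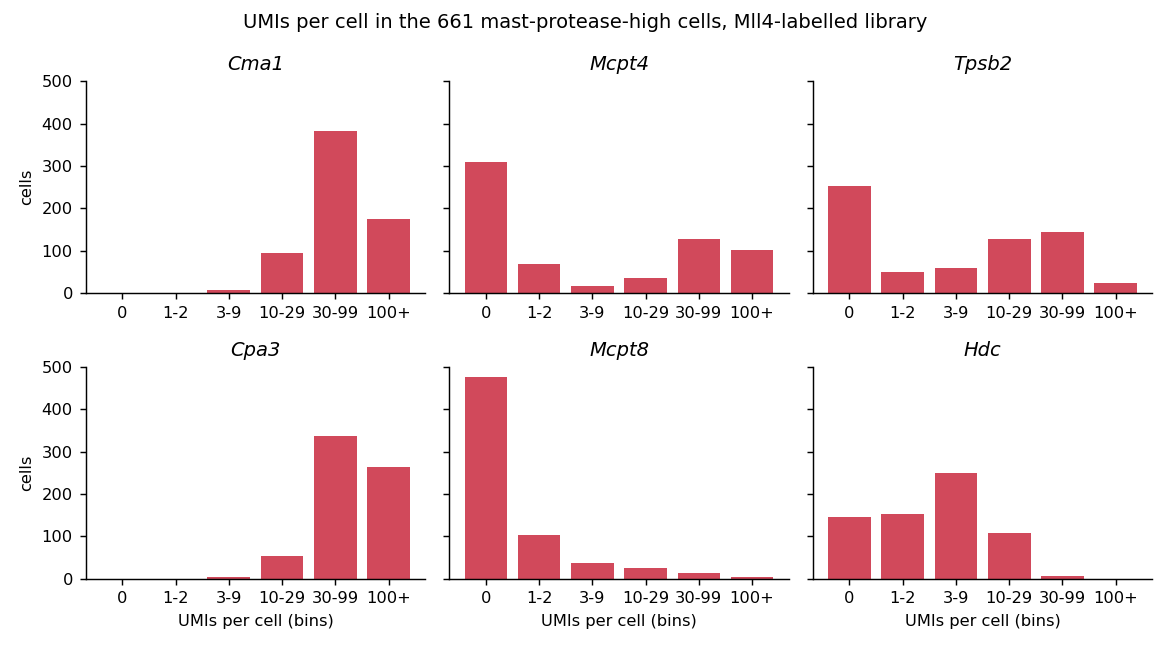
Number of cells (y axis) by UMIs per cell in bins (x axis) for Cma1, Mcpt4, Tpsb2, Cpa3, Mcpt8 and Hdc in the 661 mast-protease-high cells of the Mll4-labelled library. Cma1 and Cpa3 have 1 peak at high counts, while Mcpt4 has 309 cells at 0, 18 at 3 to 9 and 128 at 30 to 99.

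The cells were split by Mcpt4, at a threshold chosen after its distribution had been seen, into 283 with at least 3 Mcpt4 UMIs and 378 with fewer. Tpsb2 reached 3 UMIs in 75.6% (70.2 to 80.5) of the Mcpt4-positive cells and in 38.1% (33.2 to 43.2) of the others. Hdc reached 3 UMIs in 70.0% (64.3 to 75.2) against 43.9% (38.8 to 49.1). Tpsb2 and Hdc therefore each appeared more often in cells with Mcpt4. Ms4a2 went the other way, with 22.3% (17.6 to 27.6) against 37.6% (32.7 to 42.7), and Fcer1a overlapped, with 73.5% (68.0 to 78.5) against 77.2% (72.7 to 81.4). Mcpt8 was also less frequent, with 5.65% (3.27 to 9.02) against 16.9% (13.3 to 21.1), and stood at 148 against 350 CPM. Depth differed as well, with medians of 4704 and 6281.5 UMIs per cell. After thinning every cell to 3000 UMIs, at least 1 Tpsb2 UMI was found in 73.3% (67.3 to 78.8) against 39.2% (34 to 44.4) and Hdc in 76.3% (70.4 to 81.5) against 50.4% (45.1 to 55.7). For Mcpt8 the thinned shares were 14.6% (10.4 to 19.7) and 20.6% (16.5 to 25.1), whose intervals overlap, and for Ms4a2 49.6% (43.1 to 56.1) and 51.0% (45.7 to 56.3), which overlap as well. Cells of 1 library are not replicates, and these intervals describe that library.

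Surface antibodies, which were not used to form the class, set these cells apart. CD117, the Kit protein on which the cells had been sorted, had a median of 898 antibody counts in mast-protease-high cells, 147 in the other Mll4-labelled cells and 217 in control cells. CD34 had medians of 247, 79 and 170, and CD135 (the Flt3 protein) 37, 18 and 19. Flt3 RNA went the other way, at 11.7, 33.4 and 64.0 CPM in the same order, so no higher Flt3 is read from the low CD135 counts. CD48 did not stand higher, with medians of 1585 and 1930 in the 2 Mll4-labelled groups. With thresholds on CD150, CD48 and CD135 used to split stem cells (HSC) from multipotent progenitors (MPP1 to MPP4), 85.8% (82.9 to 88.4) of the mast-protease-high cells fell in the CD48+CD150- gate MPP3. The remainder included 10.7% (8.48 to 13.4) in MPP4, a gate that rests on the CD135 antibody, and 0.303% (0.0367 to 1.09) in the HSC gate. Among Mll4-labelled cells outside the class, 67.2% (65.7 to 68.6) fell in MPP3 and 8.62% in the HSC gate.

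**Figure D4:**
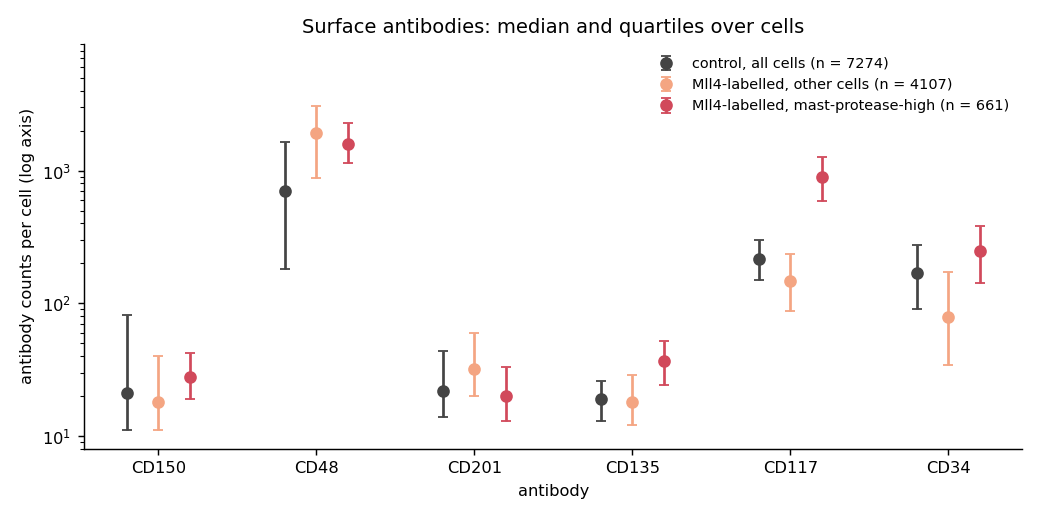
Median and quartiles over cells of the antibody counts per cell (log axis) for the 6 surface antibodies, in all control cells, in Mll4-labelled cells past neither protease threshold and in mast-protease-high cells. The mast-protease-high cells had a median of 898 counts for CD117, against 147 and 217 in the other groups.

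The sort genes were transcribed in the mast-protease-high cells. Kit, the receptor for stem cell factor, stood at 2452 CPM against 232 in the other Mll4-labelled cells, a 10.5-fold difference (10.3 to 10.8). Ly6a, which encodes Sca1, stood at 361 CPM (347 to 376) against 105 (103 to 106), and was detected in 76.1% of the mast-protease-high cells. Both markers of the sort were thus present at levels above those of the other cells in the library.

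Genes of related function, taken from lists outside the 10 members, were compared between mast-protease-high cells and the other Mll4-labelled cells. Over all 10070 genes compared, 8.6% were more than 2-fold higher, 4.25% were more than 2-fold lower and the median log2 ratio was 0.07. Of 16 other genes for mast granules and mediators above the same minimum, 14 were more than 2-fold higher and 0 lower. This count is partly set by the minimum, since 7 of the 16 lay below 5 CPM outside the class and passed through their level in it. Of the other 9, 7 were higher. Mcpt1 rests on 1 cell, which held 399 of its 434 UMIs in the library. Rab27b, which docks secretory granules, was 31.3-fold higher, and Slc18a2, which loads monoamines into vesicles, was 15.0-fold higher. Srgn, whose product serglycin holds proteases in the granule, was 2.15-fold higher. Alox5ap, needed for leukotriene synthesis, stood at 104 CPM in mast-protease-high cells and 147 in the others.

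Of 13 surface genes, 11 were higher and 0 lower, and 5 of the 13 passed the minimum only through the class. Il1rl1, the receptor for interleukin 33, was 44.6-fold (42.8 to 46.5) higher and Cd63, a granule membrane protein, 3.90-fold higher. Of 15 genes in IgE receptor signalling, 6 were higher and 0 lower, and 1 of the 15 passed only through the class. Inpp5d, an inhibitory lipid phosphatase, was 7.20-fold higher, Fcer1g, the gamma chain of the receptor, 3.76-fold, and the kinase gene Lyn 2.89-fold. The kinase gene Syk stood at 116 against 76.7 CPM, within 2-fold. Of 12 transcription factor genes, 6 were higher and 0 lower, and 1 of the 12 passed only through the class. Gata2, needed for mast cell and basophil formation, was 9.96-fold (9.55 to 10.4) higher, whereas Spi1 stood at 150 against 167 CPM. Mitf, a mast cell regulator named after its values were seen, was 18.6-fold higher.

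Of the 12 lists for other cell types and stem cells, only that of megakaryocytes held genes above the minimum that were more than 2-fold higher in the class. Of 7 granulocyte-monocyte genes 0 were higher and 3 lower, of 7 neutrophil genes 0 and 4, and of 7 plasma cell genes 0 and 5. Of 2 eosinophil genes above the minimum 0 were higher. Below it, and named after their values were seen, Il5ra stood at 3.91 CPM in the class against 0.727 and Ccr3 at 5.5 against 1.53. The summed macrophage markers stood at 705 CPM in mast-protease-high cells, 611 in the other Mll4-labelled cells and 22.2 in control cells. Itga2b and Pf4, from the megakaryocyte list, were 13.7-fold and 3.43-fold higher in the class, while Selp stood at 11.7 CPM against 33.8 in the other cells. Itga2b was detected in 72.0% of the class and 16.5% of the other cells. Pf4 was detected in 5.14% and 11.9%, so its higher level came from a small share of the class. Levels of granulocyte genes such as Mpo, at 2038 against 3891 CPM, were substantial in both sets of cells, and how far RNA from other cells contributed was not tested.

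Across the 4793 Mll4-labelled cells, the non-member genes whose level followed the mean of Cma1, Mcpt4 and Tpsb2 most closely were Lat2, Atp8b5, Mrgprb2, Il1rl1, Ndrg1, Rab27b, Basp1, Slc45a3, Tns1 and Kit. Pearson's r over log-normalised values ran from 0.79 for Lat2, an adaptor in receptor signalling, to 0.67 for Kit. These values describe cells that share 1 library and differ in depth. Lat2 was detected in 97.7% of mast-protease-high cells and 27.7% of the rest, and Mrgprb2, a receptor of connective tissue mast cells, in 67.9% and 1.98%. Among members, r with the same mean was 0.79 for Fcer1a, 0.76 for Hdc, 0.75 for Cpa3 and 0.60 for Ms4a2, but 0.19 for Mcpt8. Mcpt8 therefore followed the mast proteases far less closely than the genes of both cell types did.

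Several genes that followed the basophil proteases in that library were also high in the mast-protease-high cells. For the mean of Mcpt8 and Prss34 the closest non-member genes were Gzmb, Scin, Cyp11a1, Ccl2, Papss2, Itga2b, Csrp3, Slc45a3, Hs6st2 and Alox5, with r from 0.38 for Gzmb to 0.27 for Alox5. Slc45a3 was the gene common to both lists. Gzmb, Cyp11a1, Alox5 and Itga2b were 225-fold, 36.6-fold, 50.8-fold and 13.7-fold higher in mast-protease-high cells than in Mll4-labelled cells past neither threshold. Cells with at least 10 UMIs over Mcpt8 and Prss34 are called basophil-protease-high. They numbered 8 in control cells (0.110%, 0.0475 to 0.217), 1 in Mll3-labelled, 69 in Mll4-labelled (1.44%, 1.12 to 1.82) and 0 in Mll3/4-labelled cells. The Mll4-labelled share was 4.36% at a threshold of 3 UMIs, 0.605% at 30 UMIs and 0.558% with cells thinned to 3000 UMIs. In the Mll4-labelled library 44 of the 69 were also mast-protease-high and 25 were not.

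The cells with both protease sets were not a mirror of those with basophil proteases alone. The 44 cells with both held medians of 79 Cma1, 20 Mcpt8, 147 Cpa3 and 12 Fcer1a UMIs, at a median depth of 10177.5 UMIs. The 25 cells with basophil proteases alone held medians of 26 Mcpt8 and 41 Cpa3 UMIs and 0 of Cma1 and Fcer1a, at a median depth of 33738 UMIs. Mcpt4 was found in 40.9% of the cells with both and Tpsb2 in 34.1%, against 53.3% and 61.6% of all mast-protease-high cells. CD117 antibody counts had medians of 933.5 in the cells with both and 237 in the cells with basophil proteases alone. Doublet scores had medians of 0.0101 and 0.0243 in these 2 groups and 0.00924 in cells with mast proteases alone, and the highest scores took in 11.4%, 12% and 8.27% of these groups, against 3.04% of the cells past neither threshold. After their removal 61 of 4609 cells (1.32%) were basophil-protease-high.

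Mcpt8 UMIs were more concentrated with the Mll4 label than in control, with 20.7% and 5.39% of them in the richest cell. They were found in 745 and 268 cells. The Mll4-labelled cell with the most held 1144 Mcpt8 and 389 Prss34 UMIs, 82 Cpa3, 24 Fcer1a, 35 Ms4a2 and 6 Hdc UMIs and 0 UMIs of each mast protease. The next held 530 Mcpt8 UMIs and 0 of Prss34. In control cells the highest Mcpt8 counts were 31 and 24 UMIs, and those cells held 22 and 10 Ms4a2, 15 and 75 Cpa3 and 14 and 8 Hdc UMIs. The next control cell, with 15 Mcpt8 UMIs, held 1 Hdc UMI and 0 of Cpa3, Fcer1a and Ms4a2. Cells with several members in common were thus present in control marrow, at far lower Mcpt8 counts.

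Outside the mast-protease-high cells, the mast proteases of the Mll4-labelled library kept low levels in a near-fixed ratio to each other, while Cpa3 and Hdc stood above that ratio. Cma1 was detected in 37.6% of Mll4-labelled cells in the HSC gate, at a median depth of 24880 UMIs, and in 43.9% of all cells of that library, at a median of 21400. In control HSC-gate cells it was detected in 0%, at a median depth of 11735. No expression of Cma1 outside the class is read from these shares, and the part of RNA from other cells was not tested. Per Cma1 UMI, the cells outside the class held 0.936 times the Mcpt4 and 1.11 times the Tpsb2 of the mast-protease-high cells, which is nearly the same ratio. Per Cma1 UMI they held 11.8 times the Cpa3, 23.8 times the Hdc, 14.5 times the Mcpt8, 10.8 times the Ms4a2 and 3.47 times the Fcer1a. Cpa3 stood at 238 CPM outside both classes, against 20.2 at the Cma1 ratio and 13.8 in the corresponding control cells. Hdc stood at 26.3, against 1.11 at the Cma1 ratio and 2.55 in control cells. Mcpt8 stood at 8.77, against 0.603 and 3.79. With the cells past either threshold left out of every library, an alternative chosen after seeing the data, the log2 ratio to control with the Mll4 label was 4.11 for Cpa3, 3.36 for Hdc, 2.11 for Fcer1a, 1.68 for Ms4a2 and 1.21 for Mcpt8.

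**Figure D5:**
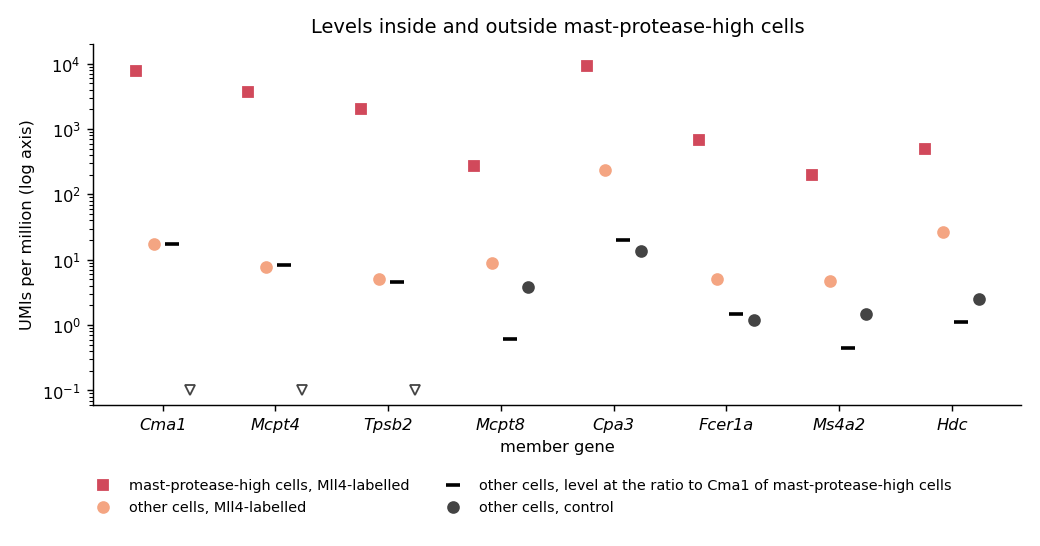
Level of 8 member genes (CPM, log axis) in the mast-protease-high cells of the Mll4-labelled library, in the cells past neither protease threshold there and in control, and the level outside the class at the class's own ratio to Cma1; open triangles stand for 0 UMIs. Mcpt4 and Tpsb2 lie near that ratio, while Cpa3 (238 against 20.2) and Hdc (26.3 against 1.11) lie far above it.

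The higher Cpa3 outside the class was seen in cells with granulocyte-monocyte genes. Among cells with at least 30 UMIs over Elane, Prtn3 and Mpo, a group chosen after values were seen, Cpa3 stood at 66.2 CPM (60.6 to 72.1) in 273 control cells and 333 in 1110 Mll4-labelled cells. Hdc stood at 26.2 (22.7 to 30.1) and 50.4. Mcpt8 did not follow, with 24 (20.7 to 27.7) and 14.1, and was detected in 35.5% and 34.9% of these cells at median depths of 27434 and 45146.5 UMIs. Cells past either protease threshold, the Mcpt8-richest among them, were left out of this and the groups below. These values therefore do not bear on the higher Mcpt8 of the whole Mll4-labelled library. Among all cells outside both classes Mcpt8 stood at 8.77 CPM with the Mll4 label and 3.79 in control. That difference was not seen within these progenitors. HSC-gate cells served as the comparison: with the Mll4 label they held 21.1 CPM of Cpa3 and 18 of Cma1, close to the ratio in mast-protease-high cells, and 1.15 of Hdc. Another group of Mll4-labelled cells, with at least 30 UMIs over the lymphoid genes Il7r, Rora, Gata3 and Cxcr6, numbered 115 against 1 in control. In it Cpa3 stood at 797 CPM (750 to 845) and was detected in 80.0% of cells, at a median depth of 9150 UMIs. Hdc stood at 2.20 CPM in these 115 cells and Mcpt8 at 4.41. Cma1 stood at 45.6 (34.9 to 58.4), Mcpt4 at 16.2 and Tpsb2 at 12.5, against 17.2, 7.68 and 5.02 in all Mll4-labelled cells outside the classes. By gate, Cpa3 outside both classes was highest in MPP3 with the Mll4 label, at 302 CPM, and lowest in MPP1 and the HSC gate, at 20.2 and 21.1. In control cells outside the classes it stood at 23.0 in MPP2 and 21.7 in MPP3, against 3.89 in the HSC gate, 3.52 in MPP1 and 2.33 in MPP4.

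Cells rich in Cpa3 but below the mast protease threshold differed in Ms4a2, Hdc, Gata2 and Mpo between control and Mll4-labelled cells, with similar Mcpt8. Such cells could hold fewer than 10 UMIs over Cma1, Mcpt4 and Tpsb2, and those past the basophil threshold were kept. Those with at least 10 Cpa3 UMIs, a threshold chosen after values were seen, numbered 37 in control, 15 in Mll3-labelled, 642 in Mll4-labelled and 2 in Mll3/4-labelled cells. In the 37 control cells Ms4a2 stood at 177 CPM (151 to 207), Hdc at 131 (109 to 157) and Mcpt8 at 111 (90.6 to 135). In the other control cells these stood at 0.709, 1.90 and 4.01. In the 642 Mll4-labelled cells Ms4a2 stood at 23.1, Hdc at 82.0 and Mcpt8 at 115. Of the 2904 Mcpt8 UMIs of these 642 cells, 3 cells held 1144, 530 and 217. Gata2 stood at 157 (132 to 185) in the Cpa3-rich control cells against 85.0 in the others, and at 57.1 (54.2 to 60.1) in the Cpa3-rich Mll4-labelled cells against 52.8. Mpo stood at 2082 against 159 in control and at 8879 against 2459 with the Mll4 label. Median depths were 25687 UMIs in the control cells and 39730.5 in the Mll4-labelled cells, and with 37 cells the control values are the less certain.

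With the Mll3/4 label other mast cell genes were low as well, as were genes of several other cell types. Of 11 other granule and mediator genes above the minimum, 10 were more than 2-fold below control and 0 above, beside 13.7% of all genes below. In the same library 7 of 7 neutrophil genes, 6 of 7 granulocyte-monocyte genes, 6 of 6 megakaryocyte genes and 6 of 7 HSC genes were below, and the summed neutrophil level was 4.23 CPM against 841. Of 11 transcription factor genes 9 were below and 0 above, and Gata2 stood at 1.24 CPM against 85.6 in control. Fcer1g stood at 3.11 against 57.1, whereas Kit stood at 246 against 215. This library also held B lineage genes at high levels, with Cd79a at 3340 CPM against 7.24 in control. Here 0 of 4748 cells passed either protease threshold, against 1 control cell past the mast threshold and 8 past the basophil threshold.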

How the data were processed

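Each library holds counts of UMIs per gene and of antibody tags per cell barcode, which the authors deposited as matrices made with Cell Ranger 6.1.1 against mm10, per the submitters' processing notes. The chemistry is the 10x 3′ version 3.1 kit, per the labels. The counts were used raw. Depth ran from 50792614 to 120700343 gene UMIs per library. The genes and lists were chosen with earlier results of these data known.

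UMIs were summed over the cells kept and scaled to 1000000 gene UMIs (CPM). Log2 ratios had 0.5 UMIs added to both sums. Intervals are exact Poisson (levels, and ratios conditional on the total) and Clopper-Pearson (shares). A library at 0 was set to 3 UMIs. Comparisons across genes took those averaging 5 CPM or more. Shares were also taken with each cell thinned to 3000 UMIs. Antibody medians and quartiles are of raw counts per cell. For the gates, CD150, CD48 and CD135 were taken as centred log ratios, with 1 threshold per antibody from a Gaussian mixture with 2 components. No p-value was computed, since each genotype had 1 library. Named genes are the members, the 10 non-member genes with the highest correlation with each protease mean and the 5 most abundant genes of each list. Genes used to define cell groups, single cells and Mitf were named after their values were seen.

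Doublets were kept. Scrublet called 3, 3, 171 and 1 cells, so it did not work in 3 of the libraries, and an alternative removed the highest scores instead. Further alternatives covered the cell filter, scaling (including TMM from edgeR 4.0.16), thinning, class thresholds and the expression minimum. The correlation ranking and the calling of ratios past 2-fold were tested on simulated data, and the intervals were not. Tools were Python 3.11.15, scanpy 1.11.5, scikit-learn 1.9.0, scipy 1.17.1 and Biopython 1.88.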

Additional observations from a re-analysis of the deposited data

Results flagged for a closer look

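For 5 members the Mll4 label went with a higher level when Mll3 was labelled intact (Mll4-labelled against control) and with a lower level when it was labelled deleted (Mll3/4-labelled against Mll3-labelled). Cma1 had log2 ratios of 11.53 and at most -1.94, the second resting on 1 Mll3-labelled cell. Mcpt8 had 3.25 and at most -5.03. Cpa3 had 5.64 and -1.95. Fcer1a had 4.90 and at most -2.16. Ms4a2 had 3.1 and -2.51, the second with 5 UMIs in 1 Mll3/4-labelled cell. Bounds set a library with 0 UMIs to 3 UMIs. Each value compares 1 library with 1 library, and the difference between the ratios was not tested.

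Among the barcodes left out by the cell filter, 80 of 2909 in the Mll4-labelled library (2.75%, 2.19 to 3.41) held at least 10 UMIs over Cma1, Mcpt4 and Tpsb2, against 0 of 408 in control, 0 of 459 in the Mll3-labelled and 0 of 388 in the Mll3/4-labelled library. Of these 80 barcodes, 70 had under 1000 genes, and their median was 759.5 genes.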

How the results depend on the processing

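With 0.5 UMIs added, 23 ratios of a member to control were past 2-fold. With a library at 0 set to 3 UMIs, Prss34 is not among them for the Mll3 label (1.18-fold lower) or the Mll3/4 label (0.568). All 23 stayed past 2-fold with 0.5 UMIs added and in the same direction under TMM, median-of-ratios and non-ribosomal scaling, the looser cell filter and doublet removal, as did 20 of 20 that could be computed under the stricter filter. With equal weight per cell 20 of 21 did, the exception being Cpa3 with the Mll3 label, at -0.82. Chosen after seeing the data, leaving out each member's richest cell kept 18 of 18 and leaving out both protease-high classes 17 of 17. Ratios left with at most 3 UMIs in both libraries were not computed. The 17 include Cma1, Mcpt4 and Tpsb2 with the Mll4 label, at 17.2, 7.68 and 5.02 CPM outside the classes against 0 in control. No expression of the mast proteases outside the class is read from these. The mast-protease-high share with the Mll4 label was 8.68% under the stricter filter, 11.3% after thinning, 19.3% at 3 UMIs and 12.5% at 30 UMIs. It was 0% in control under the stricter filter, and 0% with the Mll3 label after thinning or at 30 UMIs. The basophil-protease-high share after thinning, at 3 and at 30 UMIs was 0%, 0.797% and 0.0137% in control, 0%, 0.311% and 0% with the Mll3 label and 0.558%, 4.36% and 0.605% with the Mll4 label. Under the stricter filter 1 member was higher and 3 lower with the Mll3 label. At a minimum of 20 CPM, 2 were lower with the Mll3 label, 4 higher with the Mll4 label and 3 lower with the Mll3/4 label, as fewer members were compared. Scaling by median-of-ratios moved the median of all genes by 0.11 in the Mll3/4-labelled library. No paired analysis was possible because each genotype had 1 library. Depth limits the low members: 3 UMIs stand for 0.0249 to 0.0591 CPM.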

Other observations

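Other granule proteases were found in few cells. Mcpt1 and Mcpt2, chymases of mucosal mast cells, gave 409 and 314 UMIs in the 1 control cell that held Cma1, which had 18 UMIs each of Cma1 and Mcpt4, 25 of Cpa3, 11 of Fcer1a, 0 of Tpsb2 and 5917 UMIs in all. In the Mll4-labelled library 1 cell held a like pair, with 399 Mcpt1 and 371 Mcpt2 UMIs beside 456 of Mcpt4, 95 of Cma1 and 0 of Tpsb2, and the next highest Mcpt1 count there was 5. Mcpt2 was detected in 108 Mll4-labelled cells, 77 of them mast-protease-high. Tpsg1, a membrane-anchored tryptase, was detected in 272 Mll4-labelled cells, 248 of them mast-protease-high, and in 0 cells of the other libraries. The Mll3-labelled cell with Cma1 differed from the control cell: it held 24 Cma1, 20 Mcpt8, 53 Cpa3 and 4 Fcer1a UMIs and 0 of Mcpt4, Mcpt1 and Kit. These cells were picked after their values were seen.

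The receptor chains Fcer1a and Ms4a2 were found together in 500 Mll4-labelled cells, against 120 from the product of their shares, 4.18 times as many. Cells with at least 3 UMIs of both numbered 86 for Cma1 with Mcpt8, 17 for Mcpt4 with Mcpt8 and 707 for Cma1 with Cpa3. Depth varies between these cells and raises joint detection of any 2 genes.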
